A study of Mus musculus with 7 samples.

Results

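The expression of 9 genes linked to trophic support of injured nerve was followed in macrophages sorted from the sciatic nerve of mice. They were selected by gene symbol out of the 23361 genes quantified. Igf1, Pdgfa, Pdgfb, Pdgfc, Bdnf and Gdnf code for secreted growth factors, Cntf and Gdf15 for cytokines, and Fgfr1 for a receptor. The mice were wild-type BALB/cJ animals, an inbred strain, and no group carried a deletion. By the study's methods, the mice received the analgesic meloxicam around surgery at every time point. The sciatic nerve was transected and repaired with an inert conduit, and macrophages (lineage-negative cells positive for F4/80, CD14, CD11b and CD16/32) were sorted from the tissue inside it. RNASeq libraries came from day 5 (3 libraries), day 14 (2 libraries) and day 28 (2 libraries) after repair. There were no uninjured controls among the libraries, so that every comparison was between 2 time points after injury. The same libraries of each time point entered more than 1 comparison. The labels do not say whether a library holds RNA of 1 mouse or of several, and the p-values therefore measure the spread between these libraries, which may be in part technical. The libraries held 18027190 to 35247116 fragments assigned to genes, each fragment being 1 single-end read. Levels are given as FPKM, which adjusts for transcript length and library size and so allows genes to be set beside each other. Differences are given as log2 fold changes from edgeR's quasi-likelihood test on the fragments, with approximate standard errors (SE) and Benjamini-Hochberg adjusted p over the 12858 genes tested.

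After a nerve is cut, axons beyond the cut break down, and Schwann cells and fibroblasts form a bridge over which axons grow back. Trophic factors act in this process through receptors at the cell surface. Insulin-like growth factor 1 acts through the IGF1 receptor, and platelet-derived growth factors (PDGF) through the PDGF receptors alpha and beta. The neurotrophin BDNF binds TrkB, and GDNF binds GFRA1 together with RET. CNTF binds a complex of its own receptor with LIFR and gp130, and GDF15 binds GFRAL, while FGFR1 is itself a receptor, for fibroblast growth factors. Macrophages are a known source of IGF1 and of PDGF-B, whereas CNTF is best known from Schwann cells.

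The sort markers were abundant in every library. All 9 macrophage marker genes were detected. Their summed level was 16420 to 18880 FPKM at day 5, 17620 to 22490 at day 14 and 18200 to 18890 at day 28. Most of this sum was Lyz2, which was not a sort marker. Among the 9 marker genes Cd14 was called lower at days 14 and 28 than at day 5, and Adgre1, the gene of F4/80, lower at day 28. Of the 9 trophic factor genes, 7 passed the filter on low counts, and Bdnf and Gdnf did not.

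Igf1, Pdgfb and Fgfr1 were higher at days 14 and 28 than at day 5, and Pdgfc was lower at day 28. From day 5 to day 14, 3 of the 7 tested genes rose and none fell, where 4.78% of all tested genes were called (2.84% rose and 1.94% fell). By day 28, 3 had risen from day 5 and 1 had fallen, against 15.2% of all tested genes (7.74% rose and 7.51% fell). Between days 14 and 28, 0 of the 7 were called by edgeR, where 0.0622% of all tested genes were (0.0311% rose and 0.0311% fell), with 1 gene (Pdgfc) at an unadjusted p under 0.05, 1 called by DESeq2 and 0 by limma. The median log2 fold change over the 7 genes was 0.77, -0.13 and 0.48 from day 5 to 14, from day 14 to 28 and from day 5 to 28, while over all tested genes it was 0.03, 0.01 and 0.03. The FPKM of the libraries did not overlap for 3, 2 and 4 of the 7 genes in these comparisons, in the same order, against 43.2%, 39% and 51.5% of all tested genes. These are bulk samples, in which fewer cells of a type and less RNA per cell cannot be told apart.

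**Figure D1:**
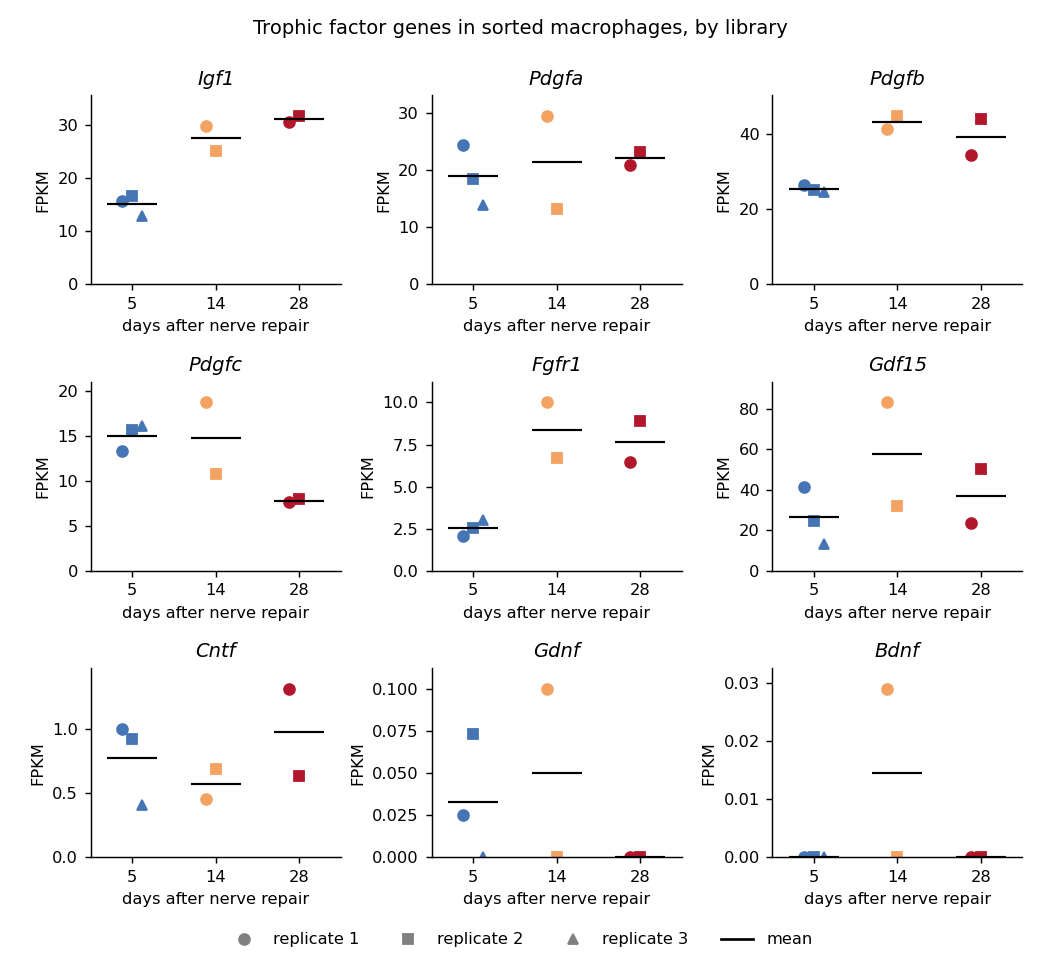
Level of each of the 9 genes in FPKM (vertical axis, from 0, scaled for each gene) against days after nerve repair, with 1 symbol per library (circle, replicate 1, square, replicate 2, triangle, replicate 3) and a line at the mean of the time point. The libraries of days 14 and 28 lie above all those of day 5 for Igf1, Pdgfb and Fgfr1, and Pdgfc is lowest at day 28.

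By level per length, the 9 genes spanned from the upper part of the transcriptome to the limit of detection. The mean over the 7 libraries was 38.4 FPKM for Gdf15, 34.4 for Pdgfb, 23.2 for Igf1, 20.5 for Pdgfa, 12.9 for Pdgfc, 5.67 for Fgfr1 and 0.776 for Cntf. Among the 17326 genes with any fragment, Gdf15 stood at percentile 87.7, Fgfr1 at 58.0 and Cntf at 37.2. At day 5 the order was Gdf15, Pdgfb, Pdgfa, Pdgfc, Igf1, Fgfr1 and Cntf. Gdf15 could not be separated from Pdgfb there, since their libraries overlapped, nor could Pdgfa, Pdgfc and Igf1 from their neighbours among each other. At day 28 the order was Pdgfb, Gdf15, Igf1, Pdgfa, Pdgfc, Fgfr1 and Cntf. The libraries of Pdgfb, Gdf15 and Igf1 overlapped between neighbours, as did those of Pdgfc and Fgfr1, while Igf1 lay above Pdgfa and Pdgfa above Pdgfc in both libraries. In the order of means Igf1 thus stood at the fifth place at day 5 and at the third at day 28.

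Igf1 codes for insulin-like growth factor 1, which promotes survival and growth of neurons and Schwann cells (chromosome 10, 87858265 to 87937042, plus strand of GRCm38). Its level was 15.7, 16.7 and 12.8 FPKM in the 3 day 5 libraries, 29.8 and 25.1 FPKM at day 14, and 30.6 and 31.7 FPKM at day 28, from 1266 to 5603 fragments per library. All day 14 libraries lay above those of day 5, and both day 28 libraries above those of day 14. The means were 15.0 ± 2.03 (SD, n = 3), 27.4 ± 3.30 (n = 2) and 31.2 ± 0.790 FPKM (n = 2). Igf1 rose 1.89-fold from day 5 to day 14 (log2 fold change 0.92, SE 0.15, edgeR adjusted p = 0.0184) and 2.10-fold to day 28 (1.07, SE 0.15, adjusted p = 0.00280). The step from day 14 to day 28 was not past the threshold (0.16, SE 0.16, edgeR adjusted p = 0.739). The day 14 call was lost without day 5 replicate 1 (edgeR adjusted p = 0.0682), without day 5 replicate 3 (0.0691) and in a fit that took the replicate number as a block (0.0986), whereas Igf1 was higher at day 28 than at day 5, and called, in 16 of 16 alternative analyses.

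The 250 bases before the start site are shown for Igf1 and Pdgfc, since these 2 of the 4 called genes have an entry in the RefSeq promoter table (GRCm38.p6). The former rose and the latter fell. The windows are chr10:87860861-87861110 for Igf1 and chr3:81036166-81036415 for Pdgfc, both on the plus strand and printed 5′ to 3′.
Igf1: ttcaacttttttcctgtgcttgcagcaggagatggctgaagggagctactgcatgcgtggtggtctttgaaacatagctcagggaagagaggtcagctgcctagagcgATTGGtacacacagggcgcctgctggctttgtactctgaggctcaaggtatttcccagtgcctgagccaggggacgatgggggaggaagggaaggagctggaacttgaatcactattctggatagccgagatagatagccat
Pdgfc: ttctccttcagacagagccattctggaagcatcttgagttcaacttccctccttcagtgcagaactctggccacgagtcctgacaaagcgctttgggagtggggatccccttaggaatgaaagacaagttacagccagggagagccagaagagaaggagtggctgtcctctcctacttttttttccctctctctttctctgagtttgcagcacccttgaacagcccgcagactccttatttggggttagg
Capitals mark a match to CCAAT, here on the minus strand, whose first base lies 142 bases before the Igf1 start site. Both strands were searched for the GC box (GGGCGG), for CCAAT itself, for the TATA box (TATAAA), for the AP-1 site (TGAGTCA) and for the STAT site (TTCNNNGAA). No other match was found in either window, and none at all for Pdgfc. Of 32851 promoter windows of the same length, 32.7% held the GC box, 33.8% the CCAAT match, 12.4% the TATA box, 4.46% the AP-1 site and 7.02% the STAT site, so that a match to CCAAT is common. The GC content was 52.8% for Igf1 and 50.8% for Pdgfc. The Igf1 window lies downstream of the first base of the gene in the GENCODE annotation.

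Of the 3 PDGF ligand genes expressed, Pdgfb rose, Pdgfc fell by day 28 and Pdgfa was not called. PDGF subunits pair into dimers, of which those of PDGF-A and PDGF-C bind mainly receptor alpha, and that of PDGF-B binds both receptors. Pdgfb (chromosome 15, 79995874 to 80014977, minus strand) was at 26.3, 25.1 and 24.6 FPKM at day 5, 41.2 and 44.8 at day 14, and 34.5 and 44.0 at day 28. The day 5 libraries were close together and lay below all later ones, while days 14 and 28 overlapped. Pdgfb rose 1.71-fold from day 5 to day 14 (log2 fold change 0.77, SE 0.12, edgeR adjusted p = 0.0184) and 1.56-fold to day 28 (0.64, SE 0.12, adjusted p = 0.0106), and did not pass the threshold between days 14 and 28 (-0.13, SE 0.14, adjusted p = 0.741). It was higher at both later time points than at day 5 in all 16 alternative analyses. The day 14 call was lost without day 5 replicate 1, 2 or 3 (edgeR adjusted p = 0.0616, 0.0673 and 0.0731) and with the replicate block (0.0947). The day 28 call was lost without day 28 replicate 2 (log2 fold change 0.46, edgeR adjusted p = 0.0607) and with the block (0.0582).

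Pdgfc (plus strand of chromosome 3, from 81036416 to 81214040) was at 13.3, 15.7 and 16.1 FPKM at day 5, 18.8 and 10.7 at day 14, and 7.64 and 7.98 at day 28. The day 14 libraries lay on either side of day 5, and the day 28 libraries lay below every earlier one. By day 28 Pdgfc had dropped by 0.93 on the log2 scale from day 5 (SE 0.21, edgeR adjusted p = 0.0198), from a mean of 15.0 ± 1.5 FPKM (SD, n = 3) to 7.81 ± 0.244 FPKM (n = 2). The difference between days 14 and 28 was of like size (-0.91, SE 0.23) and missed the threshold in edgeR (adjusted p = 0.154). DESeq2 called it (-0.92, adjusted p = 0.0126), as did edgeR with no expression filter (adjusted p = 0.00613) and without day 14 replicate 2 (-1.26, adjusted p = 0.00133). The call from day 5 to day 28 was lost without day 5 replicate 2 (0.0623), day 5 replicate 3 (0.0608), day 28 replicate 1 (0.138) or day 28 replicate 2 (0.0867) and with the replicate block (0.0821, all edgeR adjusted p). Pdgfc was lower at day 28 than at day 5 in all of the 16 alternatives.

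Pdgfa (chromosome 5, 138976014 to 138997370, minus strand) was at 24.4, 18.5 and 13.9 FPKM at day 5, 29.6 and 13.3 at day 14, and 20.8 and 23.3 at day 28. The libraries of the 3 time points overlapped, and the 2 day 14 libraries held the highest and the lowest values. No comparison passed the threshold, with log2 fold changes of 0.18 (SE 0.32), 0.05 (SE 0.35) and 0.23 (SE 0.32) and edgeR adjusted p of 0.776, 0.966 and 0.659. Pdgfd, the fourth ligand gene of the family, was at 0 to 0.104 FPKM, at or below the floor of 3 fragments in each library.

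The ratio of Pdgfb to Pdgfc was computed in each library and was not tested. It was 1.98, 1.60 and 1.53 in the day 5 libraries, 2.19 and 4.18 at day 14, and 4.52 and 5.51 at day 28, on the FPKM scale. The ratio was lowest in the day 5 libraries and highest in the day 28 libraries, with no overlap. Since Pdgfb was called higher and Pdgfc lower at day 28, the separation of days 5 and 28 restates those calls. Pdgfb over Pdgfa was at 1.08, 1.36 and 1.78 at day 5, 1.395 and 3.38 at day 14, and 1.66 and 1.89 at day 28, with overlap between the days. Pdgfb made up 41.1% to 45.1% of the summed FPKM of Pdgfa, Pdgfb and Pdgfc at day 5, 46.0% and 65.2% at day 14, and 54.8% and 58.5% at day 28. The sum itself was 54.5 to 64.0 FPKM at day 5, 89.5 and 68.8 at day 14, and 63.0 and 75.2 at day 28, so that days 5 and 28 overlapped.

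**Figure D2:**
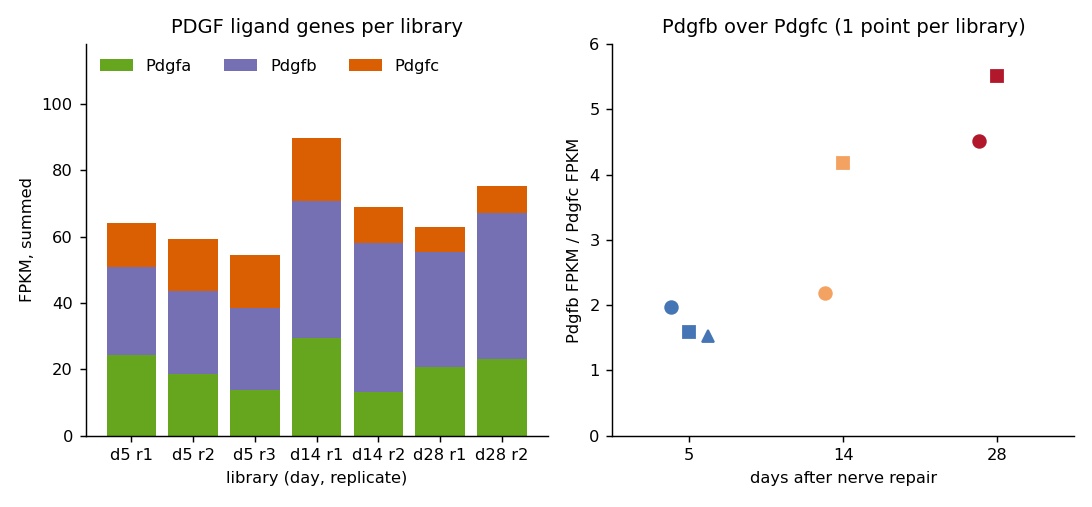
Left, FPKM of Pdgfa, Pdgfb and Pdgfc stacked in each of the 7 libraries, with the bars starting at 0 (d, day, r, replicate). Right, the FPKM of Pdgfb divided by that of Pdgfc against days after repair, 1 point per library, from 1.53 to 1.98 at day 5 and from 4.52 to 5.51 at day 28.

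Fgfr1 had the largest fold change of the 7 tested genes in both comparisons with day 5. It codes for fibroblast growth factor receptor 1, a receptor tyrosine kinase (chromosome 8, 25513654 to 25575718, plus strand). Its level was 2.09, 2.55 and 2.99 FPKM at day 5, 10.0 and 6.67 at day 14, and 6.45 and 8.88 at day 28, from 233 to 1147 fragments. Every later library lay above every day 5 library, and days 14 and 28 overlapped. The means were 2.54 ± 0.452 (SD, n = 3), 8.35 ± 2.37 (n = 2) and 7.66 ± 1.73 FPKM (n = 2). Fgfr1 rose 3.29-fold from day 5 to day 14 (log2 fold change 1.72, SE 0.22, edgeR adjusted p = 0.0106) and 3.01-fold to day 28 (1.59, SE 0.22, adjusted p = 0.00313), with -0.13 (SE 0.24, adjusted p = 0.870) between days 14 and 28. The day 28 call was made in 16 of 16 alternative analyses, and the day 14 call in 15 of them, the exception being the replicate block (1.87, adjusted p = 0.0658).

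**Figure D3:**
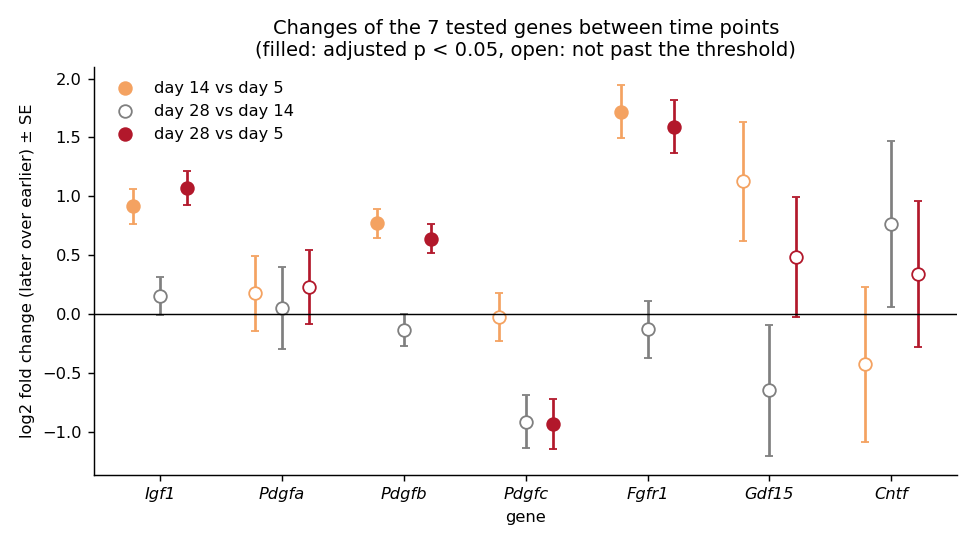
Log2 fold changes (later over earlier time point) with their SE for the 7 tested genes in the 3 comparisons, from edgeR on all 7 libraries. Filled points, which have an adjusted p under 0.05, are those of Igf1, Pdgfb and Fgfr1 in both comparisons with day 5 and of Pdgfc between days 5 and 28, while every point of day 28 vs day 14 is open.

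Gdf15, which codes for a stress-induced cytokine of the TGF-beta superfamily (chromosome 8, 70629393 to 70632456, minus strand), varied widely among libraries of the same day. It was at 41.5, 24.7 and 13.02 FPKM at day 5, 83.5 and 32.1 at day 14, and 23.5 and 50.5 at day 28. The time points overlapped, and the values within each day differed more than 2-fold. Its log2 fold changes were 1.13 (SE 0.50, edgeR adjusted p = 0.209) from day 5 to day 14, -0.65 (SE 0.56, adjusted p = 0.682) from day 14 to day 28 and 0.48 (SE 0.51, adjusted p = 0.555) from day 5 to day 28. The first of these was called only with no expression filter (adjusted p = 0.0299), 1 of 16 alternatives. The day 14 library with the higher Gdf15 also had the higher Igf1, Pdgfa, Pdgfc and Fgfr1, and the lower Pdgfb and Cntf.

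Cntf, the gene of ciliary neurotrophic factor (chromosome 19, 12763660 to 12765632, minus strand), was low. It was at 1.01, 0.922 and 0.406 FPKM at day 5, 0.454 and 0.692 at day 14, and 1.32 and 0.633 at day 28, from estimates of 8.25 to 51.2 fragments. The libraries of all time points overlapped, and no comparison was past the threshold (edgeR adjusted p = 0.739, 0.701 and 0.745). The fragments of Cntf were not whole numbers in any of the 7 libraries. Cntf lies within Zfp91 (12763660 to 12796126), on the same strand and with shared exon sequence, and Zfp91 had 2555 to 6122 fragments, so that the Cntf estimate amounted to 0.260% to 0.837% of the Zfp91 fragments. Fragments of the 2 genes could not be told apart with certainty, and the level of Cntf is uncertain.

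The neurotrophin gene Bdnf and the GDNF gene were at the limit of detection. Bdnf (chromosome 2, 109674700 to 109727007, plus strand) had 2 fragments in day 14 replicate 1 and 0 in the 6 other libraries. Gdnf (chromosome 15, 7810846 to 7837575, plus strand) had 2, 5 and 0 fragments in the day 5 libraries, 6 and 0 at day 14, and 0 in both day 28 libraries. Only 2 libraries thus passed the floor of 3 fragments for Gdnf, and none for Bdnf. The floor corresponds to 0.0436 FPKM for Bdnf in day 14 replicate 1, and to 0.0372 to 0.0501 FPKM for Gdnf in the libraries in which it was found. A count of 0 allows a share of up to 1.66e-05% of the fragments in the library with the fewest and 8.51e-06% in that with the most, which covers counting error alone. Expression below that level was not detectable at this depth.

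The receptors and partners of these factors were read out in the same libraries, as 71 genes in lists by pathway. Of these, 37 passed the filter on low counts. By day 14, 2 of the 37 had risen from day 5 and 1 had fallen by edgeR, where 4.78% of all tested genes were called. By day 28, 4 had risen and 2 had fallen, where 15.2% of all tested genes were called. The risen genes include Spry1 at both time points and Fgf13 at day 28, which passed the filter on low counts only through later libraries. The counts of rises are thus in part fixed by the filter. Between days 14 and 28, 0 of the 37 were called by edgeR (0.0622% of all tested genes), with 5 at an unadjusted p under 0.05, 2 called by DESeq2 and 0 by limma. Over the 37 genes the median log2 fold change was 0.11 from day 5 to 14, -0.02 from day 5 to 28 and -0.13 from day 14 to 28, beside 0.03, 0.03 and 0.01 over all tested genes.

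In the IGF list, 0 of the 11 tested genes were called by edgeR in any comparison, with 3, 1 and 3 at an unadjusted p under 0.05 from day 5 to 14, from day 14 to 28 and from day 5 to 28. DESeq2 called 1 of them, Igf2r, in day 14 vs day 5, and limma 0. Igf1r, the receptor gene for IGF1, was at 3.09 to 3.40 FPKM at day 5, 3.67 and 4.27 at day 14, and 3.84 and 4.79 at day 28. The later libraries lay above day 5, and the difference between days 5 and 28 was just short of the threshold (log2 fold change 0.44, SE 0.13, edgeR adjusted p = 0.0513). The insulin receptor gene Insr stayed within 4.76 to 5.78 FPKM in all libraries. The most abundant genes of the list were Igfbp4, which codes for an IGF binding protein, at 39.6 to 86.0 FPKM, and Igf2r, which codes for a receptor that takes up IGF2, at 34.1 to 54.3 FPKM.

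The PDGF receptor genes were near or below 1 FPKM. Pdgfra was at 0.260 to 0.355 FPKM at day 5, 0.780 and 0.434 at day 14, and 0.163 and 0.269 at day 28. Pdgfrb was at 0.270 to 0.441 FPKM at day 5, 0.466 and 0.992 at day 14, and 0.844 and 0.827 at day 28. Neither was called by edgeR, whose lowest adjusted p was 0.159 for Pdgfra and 0.0673 for Pdgfrb (day 28 vs day 5, log2 fold change 1.16, SE 0.37). Pdgfrl, a receptor-like gene, was at 0 to 1.62 FPKM and was not called by edgeR. Of these 3 genes DESeq2 called 1, Pdgfrb, as higher at day 28 than at day 5, and 0 in the other comparisons, while limma called 0 in each.

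The receptor gene of BDNF, Ntrk2, had 0 to 3 fragments, and Ngfr, which codes for the p75 neurotrophin receptor, 0 to 11. By contrast Sort1, the gene of sortilin, which binds precursor forms of neurotrophins, was at 6.57, 7.99 and 6.75 FPKM at day 5, 8.26 and 17.2 at day 14, and 16.6 and 16.2 at day 28. Both day 28 libraries were above those of day 5, and the 2 day 14 libraries were apart. Sort1 rose 2.32-fold between days 5 and 28 (log2 fold change 1.22, SE 0.25, edgeR adjusted p = 0.0133). That call was lost without day 5 replicate 1 (0.0581), day 5 replicate 3 (0.0501), day 28 replicate 1 (0.0952) or day 28 replicate 2 (0.0625), with the log2 fold change between 1.16 and 1.23.

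Among the GDNF and GDF15 receptors, Ret had 1 to 7 fragments, Gfra1 0 to 6, and Gfral none in any library. Gfra2, which codes for the receptor of neurturin, was at 0.797 to 1.24 FPKM at day 5, 2.69 and 1.65 at day 14, and 1.75 and 2.01 at day 28. It lay above day 5 in all later libraries and was just short of the threshold in both comparisons (log2 fold change 1.14 and 0.93, edgeR adjusted p = 0.0559 and 0.0582). DESeq2 called it in both of these comparisons. Gfra4 had 0 to 18 fragments and was not called.

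Of the CNTF receptor complex, Cntfr had 0 to 8 fragments, while both shared subunits were expressed. Lifr was at 11.6, 16.1 and 13.8 FPKM at day 5, 8.95 and 5.28 at day 14, and 5.93 and 8.06 at day 28, with all later libraries below day 5. On the log2 scale it dropped by 1.19 to day 14 (SE 0.20, edgeR adjusted p = 0.0186) and by 1.05 to day 28 (SE 0.20, adjusted p = 0.00915). The day 14 call was lost without day 5 replicate 1, 2 or 3 (0.0579, 0.0657 and 0.0676), with the replicate block (0.0975) and with limma on FPKM (0.0760 with a pseudocount of 1), and the day 28 call without day 28 replicate 1 or 2 (0.0908 and 0.0517) and with the block (0.0518). Il6st, which codes for gp130, was at 10.6 to 21.5 FPKM and was not called. Clcf1, which codes for a ligand of the CNTF receptor, had the highest mean of the list over the 7 libraries, at 20.2, 22.6 and 12.6 FPKM at day 5, 24.1 and 18.5 at day 14, and 28.5 and 39.6 at day 28. It rose between days 5 and 28 (log2 fold change 0.89, SE 0.25, edgeR adjusted p = 0.0440), a call that was lost without any 1 of day 5 replicates 1, 2 and 3 (0.0965, 0.0565 and 0.0900) or day 28 replicates 1 and 2 (0.0900 and 0.217), with limma and with the replicate block (0.128).

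**Figure D4:**
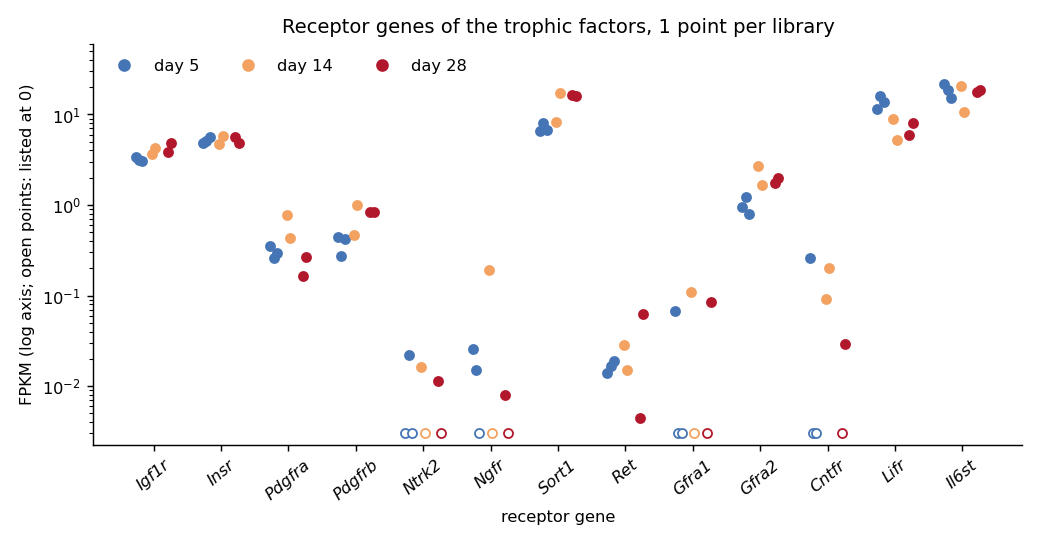
FPKM of receptor genes of the trophic factors on a log axis, 1 point per library, coloured by day, with open points at the bottom for libraries in which the gene is listed at 0. Sort1 is higher at day 28 than at day 5, Lifr is lower at days 14 and 28 than at day 5, and Ntrk2, Ngfr, Ret, Gfra1 and Cntfr lie near or at 0.

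In the list around Fgfr1, 2 of 11 tested genes rose and 1 fell from day 5 to day 28 by edgeR, where 15.2% of all tested genes were called. From day 5 to day 14, 1 of the 11 rose, where 4.78% were called. The risen genes, Spry1 and Fgf13, passed the filter on low counts only through later libraries, so that these rises are not read as a result. Spry1 and Spry2 code for Sprouty proteins, which inhibit signalling by receptor tyrosine kinases. Spry1 had 8, 8 and 7 fragments at day 5, 38 and 32 at day 14, and 58 and 22 at day 28. Spry1 is counted above among the genes called higher at both later time points. It passed the filter on low counts through those later libraries alone, so that a rise was favoured in advance and no fold change is given. The day 14 call was lost without any 1 of the 7 libraries (adjusted p 0.0549 to 0.112), and the day 28 call without any 1 library of day 5 or day 28 (0.0610 to 0.167). Spry2 was at 10.5, 8.68 and 17.0 FPKM at day 5, 5.30 and 5.81 at day 14, and 4.35 and 5.26 at day 28. By day 28 it had dropped by 1.32 on the log2 scale (SE 0.27, edgeR adjusted p = 0.0141), a call lost without day 28 replicate 1 (0.133) or 2 (0.0597). Fgf13, which codes for a member of the FGF family that stays inside the cell, had 6, 2 and 2 fragments at day 5, 10 and 7 at day 14, and 102 and 58 at day 28. It is counted above among the genes called between days 5 and 28. Of the day 5 libraries, 2 of 3 were below the floor of 3 fragments, and the gene passed the filter on low counts through the day 28 libraries, so that it had to differ and no fold change is given. Frs2, the gene of an adaptor of FGF receptors, was at 5.78 to 7.87 FPKM and was not called.

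Of 5 genes of transcription factors known to induce Gdf15, 1 was called by edgeR from day 5 to day 14, where 4.78% of all tested genes were. Egr1, an immediate early gene, was at 82.2, 57.1 and 80.3 FPKM at day 5, 189 and 192 at day 14, and 56.4 and 136 at day 28, and rose from day 5 to day 14 (log2 fold change 1.39, SE 0.30, edgeR adjusted p = 0.0383). The call was lost without day 5 replicate 1, 2 or 3 (0.103, 0.122 and 0.101), without day 14 replicate 2 (0.0703), with limma on FPKM (0.0655 with a pseudocount of 1) and with the replicate block (0.131). The 2 day 14 libraries were close together for Egr1, while for Gdf15 they were far apart. At day 28 both genes were higher in replicate 2 than in replicate 1 (Egr1 136 against 56.4 FPKM, Gdf15 50.5 against 23.5 FPKM). Both had their highest mean at day 14, and a link between them was not tested. The most abundant genes of the list, Atf3 at 211.5 to 331 FPKM and Atf4 at 148 to 227 FPKM, were not called.

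Markers of other cell types that the sorted fraction could hold were read out beside these genes. By the study's methods, the sort gated out cells bearing, among others, Ly6G (granulocytes), Siglec F (eosinophils), CD3e (T cells) or Thy1.2 (fibroblasts). Summed over 8 fibroblast markers, all of them detected, the level was 29.3 to 76.0 FPKM at day 5, 86.1 to 233 at day 14 and 40.1 to 61.2 at day 28. It was thus highest at day 14, where Pdgfb, Fgfr1 and Gdf15 also had their highest mean. This was not particular to the fibroblast list, since the sum of the neutrophil markers, given below, was highest at day 14 as well. Between the 2 day 14 libraries Col1a1 was at 82.4 against 29.9 FPKM, a gene chosen after its values were seen. The library with the higher Col1a1 also had the higher Igf1, Pdgfa, Pdgfc, Fgfr1 and Gdf15. It had the lower Pdgfb (41.2 against 44.8 FPKM) and the lower Cntf (0.454 against 0.692 FPKM). At day 28 the fibroblast sum overlapped with day 5, whereas Igf1, Pdgfb and Fgfr1 lay above day 5 in both day 28 libraries. Within the list Postn, the gene of periostin, was called higher at both later time points, with means of 1.10, 7.25 and 4.38 FPKM at days 5, 14 and 28 (edgeR adjusted p = 0.0184 and 0.0185 against day 5). Col1a2 was called higher at day 14 than at day 5 (adjusted p = 0.035, edgeR), while Thy1 itself was not called. The sum of the 6 mural cell markers was 2.96 to 3.89 FPKM at day 5, 4.30 to 5.12 at day 14 and 4.48 to 5.70 at day 28. Cspg4 alone of them was called, as higher at both later time points. Its means were 0.310, 1.36 and 1.86 FPKM at days 5, 14 and 28 (edgeR adjusted p = 0.00554 and 0.000541 against day 5). Of the 11 Schwann cell markers, 6 or 7 were detected at each time point. Their sum was 11.8 to 12.6 FPKM at day 5, 14.3 to 21.0 at day 14 and 19.0 to 20.6 at day 28, most of it Mbp. Mbp was called higher at day 28 than at day 5 (means of 11.0 and 18.4 FPKM, edgeR adjusted p = 0.0296). No other Schwann cell marker was called, and Gfap and Mal were at or below the floor in all libraries. The sum of the 7 platelet markers, most of it Pf4, was 1482 to 2123 FPKM at day 5, 412 to 523 at day 14 and 267 to 346 at day 28. The time point means of Itga2b, Gp1ba, Gp1bb and Gp9 were each below 1 FPKM, and none of these genes was called, so that the sum describes Pf4 rather than the list. Pf4 and Ppbp were called lower at both later time points than at day 5, whereas Treml1 was called higher at day 28, with means of 0.666 and 2.34 FPKM (edgeR adjusted p = 0.0489). The sum of the endothelial markers was 16.0 to 28.6 FPKM at day 5, 8.19 to 15.2 at day 14 and 5.17 to 8.21 at day 28. Between days 5 and 28 Kdr and Pecam1 were called lower (edgeR adjusted p = 0.00290 and 0.0145). Tek, with 0 to 2 fragments per library at day 5 and 9 and 46 at day 28, was called higher. Tek passed the filter on low counts through the day 28 libraries alone, so that its rise was favoured in advance. For T cell markers, of which 5 of 6 were listed, the sum was 3.93 to 5.14, 4.94 to 13.3 and 10.7 to 13.8 FPKM at days 5, 14 and 28. Most of this was Cd2, which was called higher at day 28 than at day 5 (means of 4.09 and 11.9 FPKM, edgeR adjusted p = 0.0360), while the time point means of Cd3d, Cd3e, Cd3g and Lck were each below 1 FPKM. The sum of the 7 neutrophil markers listed was 260 to 289 FPKM at day 5, 528 to 539 at day 14 and 119 to 263 at day 28. Most of it was S100a8 and S100a9, while the time point means of Camp, Ltf and Mpo were each below 1 FPKM. No neutrophil marker was called, the lowest edgeR adjusted p being 0.0515, for S100a9 from day 5 to day 14. Eosinophil and mast cell markers summed to 0.961 to 3.21 FPKM, with Epx at or below the floor. Siglecf alone of these was called, as higher at day 28 than at day 5 (means of 0.491 and 1.74 FPKM, edgeR adjusted p = 0.0105). The part of these cell types in the results was not tested.

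Across the 7 libraries, Igf1, Pdgfb and Fgfr1 followed a similar course. The Pearson correlation of log2(FPKM + 1) was 0.888 between Igf1 and Pdgfb, 0.916 between Igf1 and Fgfr1 and 0.924 between Pdgfb and Fgfr1, while it was -0.558 between Igf1 and Pdgfc. These are descriptions over 7 libraries, in which the genes share each library's time point, depth and scaling. Among 7556 tested genes with a mean of at least 5 FPKM, the 3 most like Igf1 were Ciita (0.991), Axl (0.987) and Kcnn4 (0.979). For Pdgfb they were Fuca1 (0.987), Trem2 (0.982) and Swi5 (0.982), and for Fgfr1 they were Aph1c (0.994), Il3ra (0.987) and Trim3 (0.984). For Pdgfc they included Ddx60 (0.988) and Scamp2 (0.973). Axl went from a mean of 24.3 FPKM at day 5 to 61.5 at day 14 and 63.6 at day 28, and Ddx60 from 11.0 to 10.9 and 4.23 FPKM.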

How the data were processed

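Macrophage RNA was sequenced in 7 libraries, grouped by the time point in their labels. Per the submitters' processing notes and the study's methods, the authors trimmed reads with cutadapt 1.8, mapped them to mm10 with TopHat2 2.0.13 and quantified genes with Cuffdiff 2.2.1. They deposited expected counts (estimated fragments per gene, 1.49% of the values not whole), the same fragments scaled by 1 factor per library (a deposited signal, used for 1 alternative), and FPKM, which the authors derived from the scaled fragments. How strand and reads with several positions were treated is not given in the sources used here. The library kit does not mark strand, so reads of Gm45346, Gm16000, 6330403L08Rik and Gm16159, antisense to exons of Bdnf, Pdgfc, Pdgfa and Fgfr1, cannot be told apart from those of these genes. Igf1os, Gm41361 and Mir7213 overlap Igf1 or Pdgfb outside exons.

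Expected counts were rounded, and a quasi-likelihood model was fitted to the 7 libraries in edgeR 4.0.16 (R 4.3.3) after TMM normalization and its default filter on low counts. Time point was the only term, which left 4 residual degrees of freedom. p-values were adjusted by Benjamini-Hochberg over 12858 genes and called under 0.05. SEs were derived from the F statistic. edgeR replaced Cuffdiff's test. Levels are FPKM, with a floor of 3 fragments per library for detection. The genes and lists were chosen with earlier results of these data known. Named were all 9 genes, every pathway gene called, the main receptors, the 2 genes of highest mean FPKM per list, genes overlapping a trophic factor gene, and the 3 genes of most similar course to each called gene. Alternatives were DESeq2 1.42.0, other scaling, no filter, limma 3.58.1 on log2(FPKM + 1) and log2(FPKM + 0.1), fits of 2 time points, the replicate number as a block, leaving out each library, and stricter calls. Scripts were tested on simulated data. Python 3.11.15 with pandas 2.3.3, numpy 2.4.6 and matplotlib 3.10.9 was used for tables and plots. Coordinates come from GENCODE on GRCm38. Where a time point was left with 1 library, that library was assumed to vary like the others. Some results that the rule for named genes covers are not reported here.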

Additional observations from a re-analysis of the deposited data

How the results depend on the processing

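Under rescaling (RLE size factors or the Cuffdiff factors) the counts of calls stayed within 1.5 times, and the median of all genes moved by under 0.1 on the log2 scale. The depth limits Bdnf, Gdnf and Cntf most, and the cause of the changes listed here was not tested. From day 5 to day 14 (614 genes called in all) the count was 1366 with DESeq2, 1429 with no filter, 252 and 277 with limma on log2(FPKM + 1) and log2(FPKM + 0.1), 315 with only these 2 time points, 24 at an adjusted p under 0.01, 150 with a 2-fold and 5 FPKM minimum as well, and 52 to 1728 with 1 library left out. Of the trophic factor genes (3 called) 0 remained at 0.01, 1 with the 2-fold minimum, and 1 to 3 with 1 library left out. Of the pathway genes (3 called) there were 7 with DESeq2 and with no filter, 1 with either limma fit, 0 at 0.01, 1 with the 2-fold minimum, and 0 to 6 with 1 library left out. Between days 14 and 28 (8 genes called in all, and 0 of the trophic factor and pathway genes), DESeq2 called 332 genes with 1 trophic factor and 2 pathway genes, and no filter gave 390, 1 and 3. Limma, the fit of 2 time points and the 0.01 threshold gave 0 genes. With 1 library left out the counts were 0 to 629 genes, 0 to 1 trophic factor and 0 to 2 pathway genes. Between days 5 and 28 (1960 called) the count was 597 at 0.01, 452 with the 2-fold minimum, and 452 to 2746 with 1 library left out. Trophic factor genes (4 called) were 2 at 0.01 and with the 2-fold minimum and 2 to 4 with 1 library left out, and pathway genes (6 called) 10 with no filter, 2 at 0.01 and with the 2-fold minimum, and 1 to 9 with 1 library left out.

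The replicate numbers are shared between time points, but the labels do not tie them to a shared animal, day or batch. Over 7556 genes, deviations of same-numbered libraries correlated at 0.278 (days 5 and 14), -0.138 (days 14 and 28) and -0.0144 (days 5 and 28), with 2 pairs each, so that the numbers were not taken as pairs. With the replicate block, 6, 0 and 735 genes were called from day 5 to 14, from day 14 to 28 and from day 5 to 28, with 0, 0 and 2 trophic factor genes and 0, 0 and 3 pathway genes, at 2 residual degrees of freedom. With the day 28 numbers swapped in the replicate block, a choice made after seeing the data, 357 genes were called for day 14 vs day 5 and 63 for day 28 vs day 14.

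Sign changes were found only for differences that were not past the threshold with all 7 libraries. From day 5 to 14, Pdgfa came to -0.050 with the replicate block and -0.060 with the swapped one, and to -0.50 to 0.65 with 1 library left out (lowest without day 14 replicate 1). Pdgfc came to 0.0023 with the replicate block and -0.47 to 0.33 with 1 library left out (0.010 and 0.038 without day 5 replicate 2 or 3), and Clcf1 to -0.018 with the swapped block. From day 14 to 28, leaving out 1 library gave -0.42 to 0.73 for Pdgfa (-0.032 without day 28 replicate 2), -0.32 to 0.028 for Pdgfb, -1.30 to 0.19 for Gdf15, -0.39 to 0.18 for Fgfr1 (0.095 without day 28 replicate 1), -0.19 to 0.54 for Lifr and -0.072 to 0.99 for Sort1. From day 5 to 28, Cntf came to -0.070 with the swapped block and -0.32 to 0.75 with 1 library left out, Gdf15 to -0.16 to 0.98 and Egr1 to -0.37 to 0.90.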
